A study of Mus musculus with 6 samples.

Results

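The breakdown of the branched chain amino acids leucine, isoleucine and valine was followed through 10 genes in RNA sequencing of mouse hearts. They were chosen by symbol, with earlier results of these data known: Bcat2, Bckdha, Bckdhb, Dbt, Bckdk, Ppm1k, Ivd, Mccc1, Hibadh and Hibch. All 10 were found, once each, among the 54352 genes of the table, and all 10 were among the 13094 genes tested. The 6 libraries formed 3 groups of 2. T2D dnMCUb and T2D empty vector hearts came from C57BL/6 mice that from 12 weeks of age ate a high fat diet (60% of calories) and had 1 streptozotocin injection of 75 mg/kg. Streptozotocin is a toxin of the insulin-producing beta cells, and type 2 diabetes (T2D) was defined 20 weeks into the diet. Both groups also received an adeno-associated virus by jugular vein, 16 to 18 weeks past the streptozotocin dose, and were studied 4 weeks later, 5 to 6 months from induction. In T2D dnMCUb the virus carried a FLAG-tagged dominant negative mouse MCUb (W246R and V251E); MCUb belongs to the calcium uniporter of mitochondria. In T2D empty vector the virus carried no insert. Control mice ate regular chow, and their labels give no vector, so they differed from T2D empty vector in diet, streptozotocin and virus together. The sources used here give neither the promoter of the vector nor whether each library came from 1 animal, so a p-value reflects only how these libraries spread, which may be technical.

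In mitochondria, Bcat2 moves the amino group of the 3 amino acids to 2-oxoglutarate, which gives branched chain keto acids. The branched chain keto acid dehydrogenase complex then removes the carboxyl group in a step that cannot be reversed, and the products run through separate branches to acetyl-CoA, acetoacetate or succinyl-CoA. The complex is switched off by the kinase Bckdk and on by the phosphatase Ppm1k. The heart oxidises branched chain amino acids, and low expression of these genes with build-up of the keto acids has been described in failing hearts.

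Values are regularized log (rlog) values on the log2 scale, which draw each gene towards its own mean, and depth is unknown since they are not counts. Library 1 of T2D dnMCUb stood apart from the others on the first principal component, at 10.8 against -4.42 to 2.69. Mcub itself was at 5.62 and 5.47 in T2D dnMCUb, 5.48 and 5.46 in T2D empty vector, against 5.42 and 5.47 in control. The difference between T2D dnMCUb and T2D empty vector was 0.08 (SE 0.048; limma, adjusted p = 0.888), so Mcub is no check of the label, on which every direction for T2D dnMCUb rests. All 7 cardiomyocyte markers searched were tested, among them Myl2 at 16.96 to 17.36, and no marker of the 9 cell type lists was listed at 0. A value other than 0 is no sign of expression, since the brown adipocyte markers Ucp1 and Elovl3 averaged -0.42 and -1.73. Of 5 white adipocyte markers, 0 reached a mean rlog of 5, beside 3 of 5 brown adipocyte and 2 of 6 skeletal muscle markers.

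Per length, as rlog minus log2 of transcript length in kilobases, the levels of the 10 genes averaged over 6 libraries spanned 8.91 to 11.31. Bckdha was at 11.31, Hibadh at 11.13 and Ivd at 10.92, and neighbours in this order overlapped over the libraries. Hibch at 9.96 and Ppm1k at 9.74 formed a middle pair that also overlapped. Bcat2 followed at 9.20, with Bckdhb and Mccc1 at 8.96 and Dbt and Bckdk at 8.91, again with overlap between neighbours. The breaks in the order, where no library of one gene reached a library of the next, lay between Ivd and Hibch and between Ppm1k and Bcat2. Within the complex, the message of the E1 alpha subunit (Bckdha) was thus above those of its E1 beta partner (Bckdhb) and of the E2 core (Dbt) per length. Dld, the E3 subunit shared with other dehydrogenase complexes, was at 11.83, above Bckdha in every library.

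All 10 genes were lower in T2D empty vector than in control and below T2D empty vector in T2D dnMCUb, and none passed the test over all genes in any comparison. Among the 10, the largest differences from control were those of the subunits Dbt and Bckdhb in T2D dnMCUb, and those of Bckdhb and Ppm1k in T2D empty vector. The median difference of the 10 was -0.08 for T2D empty vector against control, -0.08 for T2D dnMCUb against T2D empty vector and -0.16 for T2D dnMCUb against control. Over all genes tested the 3 medians were -0.0025, -0.0005 and -0.0023, and 51.8%, 50.5% and 51.5% of genes had a difference below 0. Limma called 0.0%, 0.0% and 0.0687% of genes at an adjusted p under 0.05 in the 3 comparisons, and 6.13%, 5.64% and 11.4% at an unadjusted p under 0.05. The first of the 3 medians of the 10 was -0.127 without T2D empty vector library 1 and -0.059 without T2D empty vector library 2. The second was -0.019 without T2D dnMCUb library 1 and -0.155 without T2D dnMCUb library 2. Without T2D dnMCUb library 1, Ppm1k, Bckdk, Bcat2 and Hibadh were above T2D empty vector, and with all libraries Bckdk differed by only -0.0013. The comparisons share libraries, so their directions are not separate observations.

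**Figure D1:**
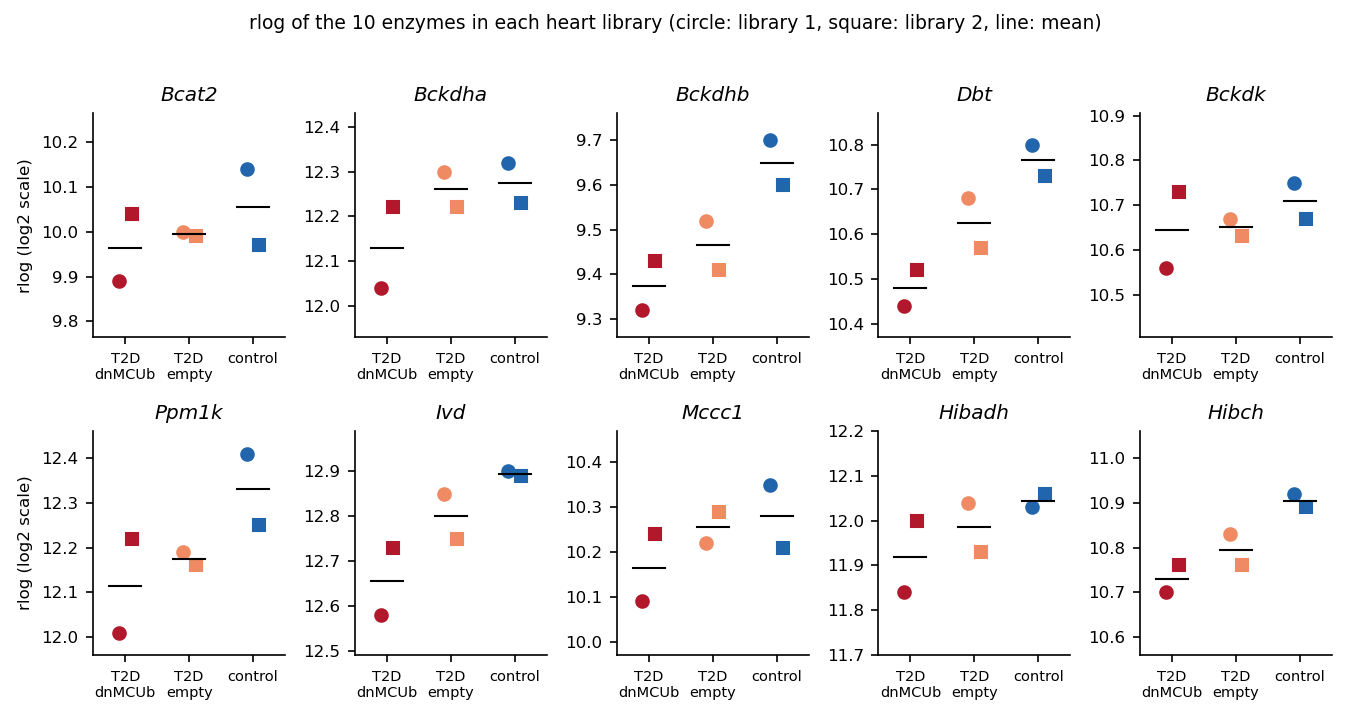
rlog values (log2 scale, vertical axes each spanning the same range) of the 10 genes in T2D dnMCUb, T2D empty vector and control hearts, with a circle for library 1, a square for library 2 and a line for the mean. Library 1 of T2D dnMCUb is the lowest point for all 10 genes, and both control libraries of Bckdhb, Dbt, Ppm1k, Ivd and Hibch lie above all 4 diabetic libraries.

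Bckdhb (ENSMUSG00000032263.14, plus strand of chromosome 9 from 83925150 to 84124239, GRCm38) encodes the E1 beta subunit, which with E1 alpha carries out the decarboxylation. Its rlog was 9.32 and 9.43 in T2D dnMCUb, 9.52 and 9.41 in T2D empty vector, against 9.70 and 9.60 in control. Both control libraries were above all 4 diabetic ones, while the 2 diabetic groups overlapped. The difference from control was -0.27 in T2D dnMCUb (SE 0.0622, 95% interval -0.42 to -0.13; limma, adjusted p = 0.184) and -0.19 in T2D empty vector (SE 0.0622, 95% interval -0.33 to -0.04; limma, adjusted p = 0.778). In the ranking of all genes by difference, Bckdhb lay at 0.443% from the lowest end in the first of these comparisons and at 0.764% in the second.

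Dbt (ENSMUSG00000000340.10, plus strand of chromosome 3 from 116513070 to 116549981) encodes the E2 subunit, the lipoyl-bearing core that passes the acyl group to coenzyme A. Its rlog was 10.44 and 10.52 in T2D dnMCUb, 10.68 and 10.57 in T2D empty vector, against 10.80 and 10.73 in control. No 2 groups overlapped, with T2D dnMCUb lowest and control highest. The difference was -0.28 between T2D dnMCUb and control (SE 0.0598, 95% interval -0.42 to -0.14; limma, adjusted p = 0.161), -0.14 between T2D empty vector and control (limma, adjusted p = 0.805) and -0.14 between T2D dnMCUb and T2D empty vector (limma, adjusted p = 0.869).

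Bckdha (ENSMUSG00000060376.7, minus strand of chromosome 7 from 25629946 to 25658981) encodes E1 alpha, the subunit that the kinase phosphorylates. Its rlog was 12.04 and 12.22 in T2D dnMCUb, 12.30 and 12.22 in T2D empty vector, against 12.32 and 12.23 in control. T2D empty vector and control overlapped and differed by -0.02 (SE 0.0752, 95% interval -0.19 to 0.16). T2D dnMCUb was lower than T2D empty vector by a difference of -0.13 (SE 0.0752; limma, adjusted p = 0.888), most of it from library 1, since library 2 lay just under the lower library of T2D empty vector, both at 12.22 after rounding.

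Subunits of the complex were also set against each other within each library. The rlog of Dbt minus that of Bckdha was -1.60 and -1.69 in T2D dnMCUb, -1.62 and -1.65 in T2D empty vector, against -1.52 and -1.50 in control. For Bckdhb minus Bckdha the values were -2.72 and -2.78 in T2D dnMCUb, -2.78 and -2.81 in T2D empty vector, against -2.62 and -2.63 in control. In both pairs the 4 diabetic libraries lay below the 2 control libraries, and library 1 of T2D dnMCUb was the diabetic library nearest to control. For Dbt minus Bckdhb the values were 1.12 and 1.09 in T2D dnMCUb, 1.16 and 1.15 in T2D empty vector, against 1.10 and 1.13 in control, with no such separation. These pairs were chosen after the values were seen and were not tested, and their levels, unlike their changes between libraries, also hold the unequal lengths of the transcripts.

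Bcat2, Bckdk and Ppm1k act before the complex or on it. Bcat2 (ENSMUSG00000030826.19, plus strand of chromosome 7 from 45570153 to 45589711), the mitochondrial aminotransferase, had an rlog of 9.89 and 10.04 in T2D dnMCUb, 10 and 9.99 in T2D empty vector, against 10.14 and 9.97 in control. Its groups overlapped in all 3 comparisons, with differences of -0.09 (95% interval -0.25 to 0.08) for T2D dnMCUb against control and -0.06 (95% interval -0.22 to 0.11) for T2D empty vector against control.

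Ppm1k (ENSMUSG00000037826.5, minus strand of chromosome 6 from 57506502 to 57535426), the phosphatase that activates the complex, had an rlog of 12.01 and 12.22 in T2D dnMCUb, 12.19 and 12.16 in T2D empty vector, against 12.41 and 12.25 in control. All 4 diabetic libraries were below both control libraries, with library 2 of T2D dnMCUb close under control library 2, and control library 1 was the highest. The difference from control was -0.21 in T2D dnMCUb (SE 0.0854; limma, adjusted p = 0.415) and -0.15 in T2D empty vector (SE 0.0854; limma, adjusted p = 0.84). With single libraries left out these differences ranged from -0.317 (without T2D dnMCUb library 2) to -0.103 (without T2D dnMCUb library 1), and from -0.233 (without control library 2) to -0.074 (without control library 1). Bckdk (ENSMUSG00000030802.14, plus strand of chromosome 7 from 127904082 to 127910221), the kinase that inactivates it, had an rlog of 10.56 and 10.73 in T2D dnMCUb, 10.67 and 10.63 in T2D empty vector, against 10.75 and 10.67 in control. Its 2 libraries of T2D dnMCUb spanned those of T2D empty vector, and the difference from control was -0.06 in each diabetic group (95% interval -0.22 to 0.09 in both).

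The kinase message relative to the phosphatase message was higher in both diabetic groups than in control. The rlog of Bckdk minus that of Ppm1k was -1.45 and -1.49 in T2D dnMCUb, -1.53 and -1.53 in T2D empty vector, against -1.66 and -1.58 in control. The 3 groups did not overlap, and library 1 of T2D dnMCUb lay beside library 2. The share of other gene pairs that separate in this way was not computed. Among single genes, 22.5% had both T2D empty vector libraries below both control libraries, and 22.7% had both T2D dnMCUb libraries below them. The group means differed by 0.146 for T2D dnMCUb against control, by 0.091 for T2D empty vector against control and by 0.055 for T2D dnMCUb against T2D empty vector, beside a pooled SD of 0.0372 between libraries of a group. With 2 libraries a group the smallest two-sided p of an exact permutation test is 0.333, and the test was not run. Without control library 1 the first 2 differences were 0.105 and 0.049, and without control library 2 they were 0.188 and 0.132.

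The promoter windows of Bckdhb and Ppm1k, with differences from control among the larger ones, and of Bckdk, with a small one, are shown from RefSeq (GRCm38.p6), each from 250 bases before to 50 bases after a RefSeq transcript start. Capitals mark matches on either strand to GGGCGG (GC box), CACCC or TATAAA.
Bckdhb (plus strand, chr9:83924887-83925186): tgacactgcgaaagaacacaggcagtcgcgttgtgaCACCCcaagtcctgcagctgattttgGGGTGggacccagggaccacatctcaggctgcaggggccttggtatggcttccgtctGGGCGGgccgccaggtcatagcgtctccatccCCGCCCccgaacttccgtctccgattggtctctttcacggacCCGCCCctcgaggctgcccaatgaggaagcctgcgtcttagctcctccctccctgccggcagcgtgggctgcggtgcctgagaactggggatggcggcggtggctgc
Ppm1k (minus strand, chr6:57535438-57535737): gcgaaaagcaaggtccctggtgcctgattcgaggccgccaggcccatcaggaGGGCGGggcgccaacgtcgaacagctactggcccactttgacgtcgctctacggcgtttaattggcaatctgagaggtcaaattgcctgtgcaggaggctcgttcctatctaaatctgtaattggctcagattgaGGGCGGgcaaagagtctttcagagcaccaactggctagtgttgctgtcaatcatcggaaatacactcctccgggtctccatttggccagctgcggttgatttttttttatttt
Bckdk (plus strand, chr7:127903823-127904122): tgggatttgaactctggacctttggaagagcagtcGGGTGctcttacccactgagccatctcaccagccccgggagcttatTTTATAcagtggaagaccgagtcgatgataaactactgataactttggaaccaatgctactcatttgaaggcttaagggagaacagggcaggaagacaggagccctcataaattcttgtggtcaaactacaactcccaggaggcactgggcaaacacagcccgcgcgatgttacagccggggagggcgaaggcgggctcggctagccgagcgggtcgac
The Bckdhb window held 3 GC boxes and 2 CACCC matches at a GC content of 65.0%, the Ppm1k window 2 GC boxes at 52.7%, and the Bckdk window 1 CACCC match and 1 TATAAA match at 54.0%. Windows were found for 9 of the 10 genes. GGGCGG was in 5 of the 9 and in 35.7% of all 32851 windows of this length, CACCC in 6 of the 9 and in 57.5%, and TATAAA in 1 of the 9 and in 13.6%. CACGTG (the E-box, in 7.15% of all windows), TCAAGGTCA (the estrogen-related receptor element, in 0.423%) and AGGTCA repeated after any 1 base (a direct repeat that PPAR receptors can bind, in 0.0396%) were in 0 of the 9. The motifs were searched on both strands and can overlap each other, and a match or its absence describes these letters only.

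Ivd and Mccc1 belong to the leucine branch. Ivd (ENSMUSG00000027332.11, plus strand of chromosome 2 from 118861954 to 118882909) encodes isovaleryl-CoA dehydrogenase, the first enzyme of that branch after the complex. Its rlog was 12.58 and 12.73 in T2D dnMCUb, 12.85 and 12.75 in T2D empty vector, against 12.90 and 12.89 in control. No 2 groups overlapped, although the library 2 values of the diabetic groups were close. The difference was -0.23 between T2D dnMCUb and control (SE 0.0709, 95% interval -0.40 to -0.07; limma, adjusted p = 0.297) and -0.14 between T2D dnMCUb and T2D empty vector (SE 0.0709; limma, adjusted p = 0.877).

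Mccc1 (ENSMUSG00000027709.9, minus strand of chromosome 3 from 35959833 to 36000678) encodes the biotin-bearing subunit of methylcrotonyl-CoA carboxylase. Its rlog was 10.09 and 10.24 in T2D dnMCUb, 10.22 and 10.29 in T2D empty vector, against 10.35 and 10.21 in control. The groups overlapped in every comparison, and the difference of -0.03 between T2D empty vector and control was smaller than its SE of 0.0698. Mccc2, the other subunit of this enzyme, had an rlog of 10.26 and 10.40 in T2D dnMCUb, 10.40 and 10.34 in T2D empty vector, against 10.52 and 10.46 in control, with both control libraries highest.

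Hibch and Hibadh act one after the other in the valine branch. Hibch (ENSMUSG00000041426.12, plus strand of chromosome 1 from 52845046 to 52920986) releases 3-hydroxyisobutyrate from its coenzyme A ester. Its rlog was 10.70 and 10.76 in T2D dnMCUb, 10.83 and 10.76 in T2D empty vector, against 10.92 and 10.89 in control. Both control libraries were above all diabetic ones, and the difference from control was -0.18 in T2D dnMCUb (SE 0.0498, 95% interval -0.29 to -0.06; limma, adjusted p = 0.269) and -0.11 in T2D empty vector (SE 0.0498; limma, adjusted p = 0.805). Hibadh (ENSMUSG00000029776.11, minus strand of chromosome 6 from 52546228 to 52640389) oxidises that product, and its rlog was 11.84 and 12.00 in T2D dnMCUb, 12.04 and 11.93 in T2D empty vector, against 12.03 and 12.06 in control. T2D dnMCUb was below control with no overlap (difference -0.12, SE 0.0715; limma, adjusted p = 0.537), and T2D empty vector overlapped both.

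**Figure D2:**
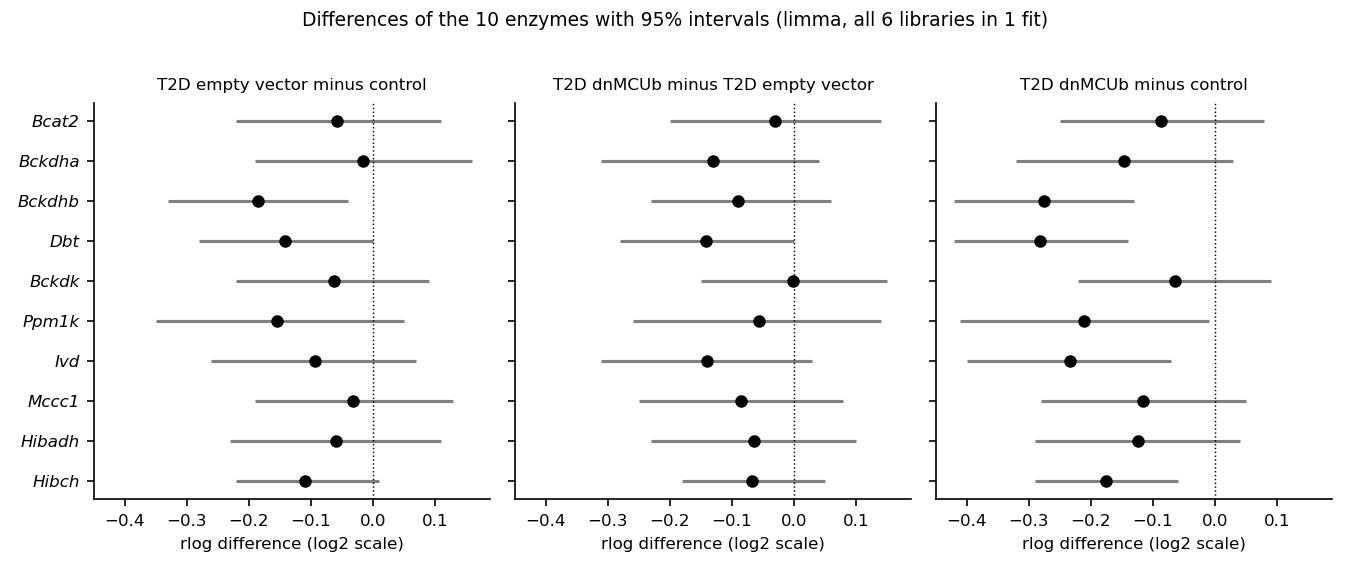
Differences of rlog (log2 scale, horizontal axes) of the 10 genes in 3 comparisons, with points for limma's estimates and lines for 95% intervals from 1 fit to 6 libraries. In T2D dnMCUb against control the intervals of Bckdhb, Dbt, Ppm1k, Ivd and Hibch lie below 0, while after adjustment over all genes none of the 10 passed.

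Between T2D empty vector and control, which asks what diabetes with an empty vector did, 6 of the 10 genes had both diabetic libraries below both control libraries, where 22.5% of all genes did. The 6 were Bckdhb, Dbt, Ppm1k, Ivd, Hibch and Bckdk. Bckdk was only just among them, with its nearest libraries of the 2 groups both at 10.67 after rounding. At an unadjusted p under 0.05, limma had 2 of the 10 lower, Bckdhb and Dbt, and 2.87% of all genes. The authors' deposited table, whose log2 folds run in the same direction as the rlog differences for all 72 of its called genes in this comparison, has 0 of the 10 at an adjusted p under 0.05 and 0.255% of its 28255 genes with a fold. At an unadjusted p under 0.05, 3 of the 10 were lower in the authors' deposited table, against 1.01% of genes: Bckdhb (log2 fold -0.34), Ppm1k (-0.23) and Dbt (-0.22).

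Between T2D dnMCUb and T2D empty vector, which asks what the cargo of the vector did in diabetic hearts, the differences of the 10 genes ran from -0.14 for Dbt and Ivd to under 0.002 in size for Bckdk. The T2D dnMCUb libraries were below both T2D empty vector libraries for 4 of the 10, Dbt, Bckdha, Ivd and Hibch, and for 16.5% of all genes. For Bckdha and Hibch the nearest libraries of the 2 groups were equal after rounding, at 12.22 and 10.76. Limma had Dbt alone at an unadjusted p under 0.05, with 2.53% of all genes lower at that level. With single libraries left out the median of the 10 moved from its -0.08 by over 1.5 times in places: it was -0.02 without T2D dnMCUb library 1, -0.155 without T2D dnMCUb library 2, -0.039 without T2D empty vector library 1 and -0.109 without T2D empty vector library 2. Without T2D dnMCUb library 1 the differences of Ppm1k (0.05), Bckdk (0.087), Bcat2 (0.048) and Hibadh (0.02) were above 0, while Dbt stayed at a difference below 0 under each library left out, from -0.199 to -0.083. Of the 10, 9 were lower in the authors' deposited table, 0 of them at an unadjusted p under 0.05, where 0.253% of genes were, and 0 at an adjusted p under 0.05, where 0.0311% were.

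Between T2D dnMCUb and control, which differ in diabetes, virus and cargo together, 7 of the 10 genes had no overlap with T2D dnMCUb lower, where 22.7% of all genes did. At an unadjusted p under 0.05, limma had 5 of the 10 lower, Dbt, Bckdhb, Hibch, Ivd and Ppm1k, and 5.54% of all genes. The authors' deposited table had the same 5 of the 10 lower at that level, where 1.07% of genes were, and 0 at an adjusted p under 0.05, where 0.357% were. The smallest of their adjusted p-values in the authors' deposited table was 0.0819, for Dbt at a log2 fold of -0.46, beside -0.52 for Bckdhb and -0.34 for Ivd. Without library 2 of T2D dnMCUb, limma called 4 of the 10 over all genes: Bckdhb (difference -0.333, adjusted p = 0.0295), Dbt (-0.323, adjusted p = 0.0315), Ivd (-0.306, adjusted p = 0.0333) and Ppm1k (-0.317, adjusted p = 0.043). In that fit the group is library 1 alone, whose spread is assumed to be that of the other groups, and 743 of the 13094 genes were called in all. Without library 1, 0 of the 10 were called and their median was -0.081, where it was -0.16 with both libraries.

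With both diabetic groups averaged against control, a comparison added after the values were seen, Bckdhb, Dbt, Ppm1k, Ivd and Hibch had all 4 diabetic libraries below both control libraries. That was so for 11.9% of all genes. The difference was -0.23 for Bckdhb (SE 0.0538; limma, adjusted p = 0.231), -0.21 for Dbt (SE 0.0518; limma, adjusted p = 0.244) and -0.14 for Hibch (SE 0.0432; limma, adjusted p = 0.358). Limma called 0.0% of genes in this comparison and had 9.69% at an unadjusted p under 0.05. The 5 genes were lower at that level, where 4.89% of all genes were, and all 10 were below 0, where 51.4% were. With 4 libraries against 2 the smallest two-sided p of an exact permutation test is 0.133. Without library 2 of T2D dnMCUb, limma called Bckdhb alone of the 10 (difference -0.259, adjusted p = 0.0409), among 314 of the 13094 genes called in that fit.

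Cardiomyocyte markers moved with these genes across the libraries. The mean of the 10 genes, each relative to its own mean, was -0.157 and -0.011 in T2D dnMCUb, 0.026 and -0.033 in T2D empty vector, against 0.129 and 0.046 in control. The mean of the 7 cardiomyocyte markers was -0.200 and 0.040 in T2D dnMCUb, -0.010 and -0.031 in T2D empty vector, against 0.142 and 0.059 in control. Both means were lowest in library 1 of T2D dnMCUb and highest in control library 1. The summed level of these markers (log2) was 19.91 to 20.20 in T2D dnMCUb, 20.11 in both T2D empty vector libraries and 20.19 to 20.29 in control, and 7 of 7 were lower in T2D dnMCUb and 6 of 7 in T2D empty vector than in control. The 6 fibroblast markers ran the other way, with a summed level (log2) of 14.82 to 15.33 in T2D dnMCUb, 14.74 to 15.05 in T2D empty vector and 14.73 to 14.84 in control. Red cell markers, 5 of 5, were also higher in T2D dnMCUb than with the empty vector, with a median difference of 0.88. Relative to each marker's own mean, they averaged 0.206 and 0.689 in T2D dnMCUb and -0.449 and -0.411 in T2D empty vector. In control they averaged 0.382 and -0.418, so control library 1 was above library 1 of T2D dnMCUb. Macrophage markers, 6 of 6, were higher than in control in both diabetic groups, with a summed level (log2) of 11.89 to 12.03 in T2D dnMCUb, 11.78 to 11.85 in T2D empty vector and 11.75 to 11.80 in control. The mean of the 5 atrial myocyte markers, each relative to its own mean, was 1.114 and -0.500 in T2D dnMCUb, -0.497 and -0.363 in T2D empty vector, against 0.594 and -0.349 in control, high in library 1 of T2D dnMCUb, where the 10 genes were lowest, and in control library 1, where they were highest. The part of these cell types in the differences of the 10 genes was not tested. In whole heart tissue fewer cells of a type and less RNA per cell cannot be told apart.

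**Figure D3:**
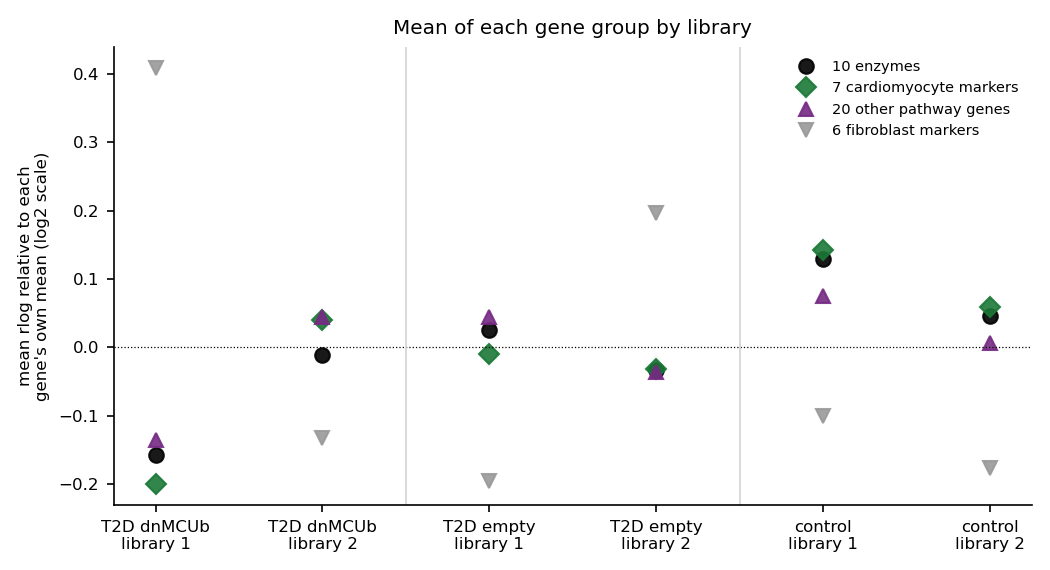
Mean rlog of 4 gene groups in each library, relative to each gene's own mean over 6 libraries (log2 scale, vertical axis), for the 10 enzymes (circles), 7 cardiomyocyte markers (diamonds), 20 other pathway genes (upward triangles) and 6 fibroblast markers (downward triangles). The enzymes stand at -0.157 and the cardiomyocyte markers at -0.200 in library 1 of T2D dnMCUb, where the fibroblast markers are at 0.409.

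Set against the cardiomyocyte markers in the same library, the mean of the 10 genes was no longer higher in both control libraries than in all 4 diabetic ones. It was 0.04 and -0.05 in T2D dnMCUb, 0.04 and within 0.005 of 0 in T2D empty vector, against -0.01 and -0.01 in control. Of the 10, Bckdhb alone still had all 4 diabetic libraries below both control libraries, at 0.02 and -0.10 in T2D dnMCUb and 0.03 and -0.05 in T2D empty vector, against 0.06 and 0.04 in control. On this scale Dbt differed from control by -0.10 in T2D dnMCUb and by -0.02 in T2D empty vector, Ppm1k by -0.03 in both and Bckdk by 0.12 and 0.06 in that order. This scale was added after the values were seen and was not tested.

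The 10 genes resembled each other across the libraries. The correlation of each gene with the mean of the other 9 ran from 0.80 for Mccc1 to 0.959 for Ppm1k over 6 libraries, as a description of values that share the same libraries and scaling. The 5 tested genes outside the list with the highest correlation with the mean of the 10 were Hdlbp (0.995), Mdh1 (0.993), Ldhb (0.993), Usp9x (0.993) and Ska2 (0.989), also over 6 libraries. Mdh1 and Ldhb encode the cytosolic malate dehydrogenase and the heart form of lactate dehydrogenase. A correlation above 0.9 was reached by 550 genes, 4.20% of those outside the list. Ldhb had an rlog of 13.48 and 13.68 in T2D dnMCUb, 13.71 and 13.66 in T2D empty vector, against 13.90 and 13.79 in control, lowest and highest in the same libraries as the enzymes.

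Of 22 symbols searched for the rest of the pathway, 21 were found and 20 tested, Bcat1, the cytosolic aminotransferase, having too low a mean. None of the 20 passed limma's test in any comparison. Against control 15 were lower in T2D dnMCUb (median -0.12) and 14 in T2D empty vector (median -0.06). Acadsb, the dehydrogenase of the isoleucine branch, had the smallest p of these genes against control, with an rlog of 11.82 and 11.89 in T2D dnMCUb, 11.96 and 11.89 in T2D empty vector, against 12.16 and 12.06 in control. Its difference from control was -0.26 in T2D dnMCUb (SE 0.0607; limma, adjusted p = 0.196) and -0.19 in T2D empty vector (SE 0.0607; limma, adjusted p = 0.762). Mut, methylmalonyl-CoA mutase, which forms succinyl-CoA, differed from control by -0.17 (SE 0.0548; limma, adjusted p = 0.319) and -0.12 (SE 0.0548; limma, adjusted p = 0.805) in the same 2 groups. The 5 genes above 0 against control in both diabetic groups, named after their values were seen, were Hadh, Hadha, Hadhb and Acaa2, which also serve fatty acid oxidation, and Acat1, which also serves ketone body use, with differences of 0.02 to 0.11 in T2D dnMCUb and 0.08 to 0.12 in T2D empty vector. Pcca, a subunit of propionyl-CoA carboxylase, was at -0.13 in T2D dnMCUb and at 0.01 with the empty vector, each against control.

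**Figure D4:**
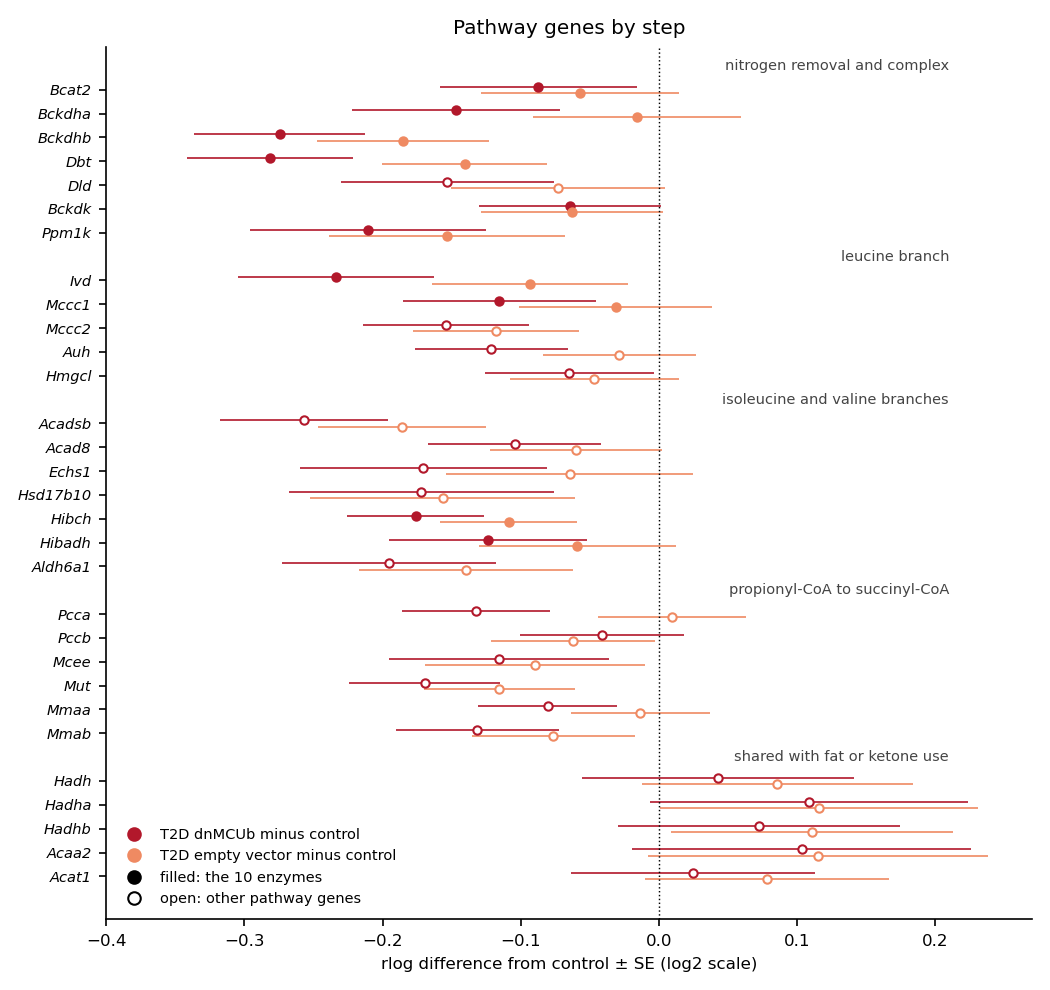
Differences of rlog from control (log2 scale, horizontal axis, bars for limma's SE) for pathway genes in order of their steps, in T2D dnMCUb and T2D empty vector, with filled points for the 10 enzymes and open points for other pathway genes. In T2D dnMCUb, Dbt and Bckdhb lie farthest below 0, at -0.28 and -0.27, with Acadsb at -0.26, and the 5 genes shared with fat or ketone use lie above 0.

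Genes around the pathway showed other values. Of 12 genes for amino acid transport and regulation, 10 were higher in T2D empty vector than in control (median 0.03) and 7 in T2D dnMCUb than in control (median 0.01), and none passed limma's test. Slc3a2, the heavy chain of the leucine transporter at the cell surface, had the smallest p for T2D dnMCUb against control, with a difference from control of 0.17 in T2D dnMCUb (SE 0.046; limma, adjusted p = 0.249) and 0.08 in T2D empty vector (SE 0.046; limma, adjusted p = 0.842). Klf15, a transcription factor known to promote branched chain amino acid breakdown in mouse heart, differed from control by 0.10 (SE 0.0655) and 0.09 (SE 0.0655), and Slc25a44, a mitochondrial carrier for these amino acids, by -0.02 and -0.03. Among 13 genes of the pyruvate and 2-oxoglutarate dehydrogenase complexes and their regulators, 11 were lower in T2D dnMCUb than in control (median -0.11) and 10 in T2D empty vector (median -0.07), and none passed limma's test. Pdhx, the E3-binding subunit of the pyruvate complex, was at -0.21 (SE 0.0615; limma, adjusted p = 0.273) in T2D dnMCUb, while Pdk4, a kinase that turns that complex off, was at 1.25 (SE 0.17; limma, adjusted p = 0.0576) in T2D dnMCUb and 1.22 (SE 0.17; limma, adjusted p = 0.326) in T2D empty vector. In the authors' deposited table Pdk4 passed in both, at a log2 fold of 1.86 in T2D dnMCUb (adjusted p = 0.00903) and 1.79 in T2D empty vector (adjusted p = 6.62e-07).

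Oxct1 and Abat, counted apart from the pathway, had larger differences from control. Oxct1, the ketone body enzyme that activates acetoacetate, had an rlog of 14.30 and 14.33 in T2D dnMCUb, 14.58 and 14.48 in T2D empty vector, against 14.77 and 14.76 in control. No 2 groups overlapped, and the difference from control was -0.45 in T2D dnMCUb (SE 0.0738; limma, adjusted p = 0.0848) and -0.23 in T2D empty vector (SE 0.0738; limma, adjusted p = 0.759). Abat, known as the GABA aminotransferase and drawn beside the valine branch in pathway charts, differed from control by -0.90 in T2D dnMCUb (SE 0.137; limma, adjusted p = 0.0682) and by -0.73 in T2D empty vector (SE 0.137; limma, adjusted p = 0.435). In the authors' deposited table Abat passed for T2D empty vector against control, at a log2 fold of -1.47 and an adjusted p of 1.29e-17, and did not for T2D dnMCUb against control, at -1.85 and 0.384. Oxct1 passed in both comparisons in the authors' deposited table, at a log2 fold of -0.64 in T2D dnMCUb (adjusted p = 3.64e-06) and -0.33 in T2D empty vector (adjusted p = 0.00797).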

How the data were processed

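Mouse heart RNA was depleted of ribosomal RNA and made into stranded libraries, per the labels' protocols. Tools named in the submitters' processing notes are STAR 2.5.2a, bcl2fastq 2.20.0.422 and DESeq2, beside the builds hg38, mm10 and GRCm38, without roles. The counting program is not given in the sources used here. The authors deposited rlog values on the log2 scale for 6 libraries, with log2 fold changes, p-values and adjusted p-values for 3 comparisons, and 0 value columns were left unused. The rlog shrinks differences: as a share of the authors' log2 fold, the median for the 10 genes was 0.627 for T2D empty vector against control, 0.652 for T2D dnMCUb against T2D empty vector and 0.619 for T2D dnMCUb against control. Listed transcripts of all 10 had the coordinates of GENCODE M21.

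The test of each difference was that of limma 3.58.1, run in R 4.3.3 (mean-variance trend, Benjamini-Hochberg adjustment, threshold 0.05). The test covered 13094 genes, those whose rlog averaged 5 or more, in 1 fit with a term per group, 3 residual degrees of freedom and 4.6 from the prior. SE and 95% intervals are limma's, and each difference is the group named first minus the other. The procedure was tested on simulated data. All 10 genes are named, and of each other list up to 4 genes per comparison with the smallest p; Klf15, Slc25a44 and the pathway genes above 0 were named besides these. Members and lists were chosen with earlier results of these data known. Alternatives were another filter, no trend, fits to 2 groups, quantile or median scaling, a replicate term and each library left out.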

Additional observations from a re-analysis of the deposited data

How the results depend on the processing

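Of 510 recomputed differences of the 10 genes over 4 comparisons, 493 kept their direction and side of the threshold, 5 passed it only when library 2 of T2D dnMCUb was left out, and 12 changed direction, each with 1 library left out. The ranges over libraries left out, for those that changed direction, were -0.14 to 0.026 for Bcat2, -0.064 to 0.032 for Bckdha and -0.102 to 0.039 for Mccc1 in T2D empty vector against control. They were -0.089 to 0.087 for Bckdk, -0.164 to 0.05 for Ppm1k, -0.149 to 0.02 for Hibadh and -0.109 to 0.048 for Bcat2 in T2D dnMCUb against T2D empty vector. They were -0.152 to 0.024 for Bckdk in T2D dnMCUb against control, and -0.155 to 0.011 for Bcat2 with both diabetic groups against control. The median of the 10 ranged from -0.127 to -0.059 in T2D empty vector against control, from -0.155 to -0.019 in T2D dnMCUb against T2D empty vector and from -0.222 to -0.081 in T2D dnMCUb against control. Bckdk minus Ppm1k ranged from 0.049 to 0.132 in T2D empty vector against control and from 0.105 to 0.188 in T2D dnMCUb against control. Genes called by limma with 1 library left out ranged from 0 to 30 in T2D empty vector against control, 0 to 14 in T2D dnMCUb against T2D empty vector, 0 to 743 in T2D dnMCUb against control and 0 to 314 with both diabetic groups, and called members from 0 to 4 in T2D dnMCUb against control and 0 to 1 with both diabetic groups. In T2D dnMCUb against control the 9 genes called became 0 with no filter, a minimum of 8, no trend, only those groups in the fit, quantile scaling, median scaling or the replicate block. Fits to the 2 groups alone called 30 genes in T2D empty vector against control, and quantile scaling 3 with both diabetic groups. The causes were not tested. In the fit with the replicate block 0 genes and 0 members were called in any comparison. Deviations of same-numbered libraries from their group means correlated at -0.0876 (T2D empty vector and control), -0.0133 (T2D dnMCUb and control) and -0.511 (T2D dnMCUb and T2D empty vector). With 2 libraries a group, a negative value means that library 1 of one group moved with library 2 of the other. Whether replicate numbers mark pairs cannot be told from these values. Counts and depth are unknown, so no counting error is given.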
